A study of Mus musculus with 12 samples.

Results

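The liprins are a family of 6 mouse genes, *Ppfibp1* and *Ppfibp2* for the liprin-β proteins and *Ppfia1*, *Ppfia2*, *Ppfia3* and *Ppfia4* for the liprin-α proteins. They were measured here in C57MG cells, a mouse mammary epithelial line. *Ppfibp2* was chosen by its measured response in these arrays, and the other 5 genes were added by family name. The values of *Ppfibp2* are therefore given as a description with no test. Of the 41174 distinct probes on the array, 11 carried one of the listed symbols, and none of these was named *Ppfia3*. A further probe, named 2410127E16Rik in the scanner files, matched *Ppfia3* through its RefSeq accession, so 12 liprin probes were followed. Of these, 8 were well above background on all 12 arrays.

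Cells were moved to plain DMEM and treated for 24 h with BSA, the carrier protein, with recombinant human Rspo2 at 100 ng/ml, with recombinant mouse Wnt3a at 100 ng/ml, or with both proteins. R-spondins potentiate Wnt signaling. Each group had 3 biological replicates, and total RNA of each was labeled with 1 dye for an array of 60-base probes. All groups share 1 cell line and 1 time point, and no dose series was part of the arrays. Values below are background-subtracted intensities in scanner units, or log2 of the intensity divided by the 75th percentile of its array. That percentile lay between 774 and 1146 units.

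Liprins are scaffold proteins with coiled-coil and SAM domains. The α proteins bind the intracellular part of LAR-type receptor tyrosine phosphatases and organize the presynaptic active zone in neurons. In other cells liprin-α1 and liprin-β1 sit with ERC1, LL5β and KANK proteins at the cell cortex near focal adhesions, where microtubules are captured. Liprin-β proteins form dimers and associate with the α proteins, and liprin-β1 also binds the calcium-binding protein S100A4.

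The label of the cells and the treatments were checked first. Among markers of luminal and general epithelium, 1 of 5 genes (*Krt8*) was well above background on all 12 arrays. *Cdh1*, for E-cadherin, was above background on 0 arrays and *Epcam* on 2. Among basal or myoepithelial markers, 3 of 4 genes were above background on all arrays (*Krt14*, *Trp63* and *Acta2*), as were 4 of 5 fibroblast or mesenchymal markers, *Vim* and *Col1a1* included. The same held for 1 of 5 neuronal markers (*Tubb3*), 1 of 3 leukocyte markers (*Cd68*) and 1 of 3 endothelial markers (*Cdh5*). *Axin2*, a feedback gene of Wnt/β-catenin signaling, was above background only on the 3 arrays of the combination. There it was at least 9.39-fold higher than with BSA, with BSA readings raised to the lowest intensity well above background. The limma fit used the unraised BSA readings, which were not above background, and gave an adjusted p of 1.14e-05. *Nkd1*, another feedback gene, was above background on 0 arrays. Groups were spread unevenly over 3 slides. All BSA arrays shared slide 1 with the first Rspo2 replicate, all combination arrays shared slide 3 with the third Wnt3a replicate, and slide 2 carried the remaining Rspo2 and Wnt3a arrays. BSA shared no slide with Wnt3a or with the combination, so those comparisons have no within-slide value. BSA replicate 1, Rspo2 replicate 3 and combination replicate 1 had the most probes well above background, with 64.2%, 58.8% and 61.7% against 51.3% to 56.5% on the other arrays.

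The RefSeq annotation of GRCm38.p6 gives *Ppfibp2* 4 start sites on the plus strand of chromosome 7, and *Ppfibp1* 1 start site on the plus strand of chromosome 6. Their windows of 250 bases before and 50 bases after the start are shown because *Ppfibp2* had the large response and *Ppfibp1*, its nearest relative, did not. The array probes do not tell the 4 starts of *Ppfibp2* apart. Capitals mark CG dinucleotides. In order, the *Ppfibp2* windows lie at chr7:107594801-107595100, chr7:107606594-107606893, chr7:107665228-107665527 and chr7:107691593-107691892, and the *Ppfibp1* window at chr6:146888244-146888543.
Ppfibp2 start 1: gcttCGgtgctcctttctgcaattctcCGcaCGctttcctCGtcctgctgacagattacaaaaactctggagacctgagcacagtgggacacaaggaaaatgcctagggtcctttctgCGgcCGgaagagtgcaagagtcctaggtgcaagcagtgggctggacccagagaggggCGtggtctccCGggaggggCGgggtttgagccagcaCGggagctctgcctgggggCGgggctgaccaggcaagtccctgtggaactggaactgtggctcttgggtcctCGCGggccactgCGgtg
Ppfibp2 start 2: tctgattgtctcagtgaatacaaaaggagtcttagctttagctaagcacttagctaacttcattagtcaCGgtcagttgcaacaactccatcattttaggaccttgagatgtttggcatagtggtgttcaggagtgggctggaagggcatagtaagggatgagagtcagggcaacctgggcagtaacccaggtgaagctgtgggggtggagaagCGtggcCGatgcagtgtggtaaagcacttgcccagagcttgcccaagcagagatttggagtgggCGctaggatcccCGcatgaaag
Ppfibp2 start 3: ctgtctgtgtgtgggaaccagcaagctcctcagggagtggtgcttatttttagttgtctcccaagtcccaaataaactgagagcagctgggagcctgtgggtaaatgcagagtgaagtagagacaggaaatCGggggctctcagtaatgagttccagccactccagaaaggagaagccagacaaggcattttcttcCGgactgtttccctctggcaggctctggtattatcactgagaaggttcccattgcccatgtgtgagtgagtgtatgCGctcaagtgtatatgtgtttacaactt
Ppfibp2 start 4: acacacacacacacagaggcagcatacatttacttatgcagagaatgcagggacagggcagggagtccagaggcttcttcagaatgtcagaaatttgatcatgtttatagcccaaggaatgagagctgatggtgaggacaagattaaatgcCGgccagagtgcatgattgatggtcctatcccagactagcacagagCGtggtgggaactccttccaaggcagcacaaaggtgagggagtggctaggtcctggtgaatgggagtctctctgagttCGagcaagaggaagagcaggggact
Ppfibp1: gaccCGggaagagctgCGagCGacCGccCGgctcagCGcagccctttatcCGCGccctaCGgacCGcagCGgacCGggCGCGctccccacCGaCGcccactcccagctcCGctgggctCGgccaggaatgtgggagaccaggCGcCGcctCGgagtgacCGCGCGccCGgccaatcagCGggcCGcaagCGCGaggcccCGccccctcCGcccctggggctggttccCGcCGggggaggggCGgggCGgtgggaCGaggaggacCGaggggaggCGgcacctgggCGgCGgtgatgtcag

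The first *Ppfibp2* window held 14 CG dinucleotides and the other windows of the gene held 5, 3 and 3. The *Ppfibp1* window held 40, more than 96.1% of the 32851 promoter windows in the table, whose median was 7. The windows were also searched on both strands for the core letters bound by TCF/LEF factors, the DNA-binding partners of β-catenin, spelled CTTTGNN with A or T at each of the last positions. None of the 4 *Ppfibp2* windows and not the *Ppfibp1* window held these letters. Of the 10 liprin windows, 1 held a match, the first of the 2 windows of *Ppfia4*, and 16.9% of all promoter windows held at least 1.

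*Ppfibp2*, for liprin-β2, was higher in every treatment group than with BSA and highest with both proteins. Probe 1 (A_51_P230439) is the brighter of its 2 probes and lies at chr7:103641586-103641645 in the coordinates of the array design, whose build the file headers do not name. With BSA it read 105, 105 and 105 units in replicates 1 to 3. With Rspo2 it read 169, 164 and 116 units. With Wnt3a it read 448, 389 and 303 units, and with both proteins 1272, 1565 and 1736 units. The 4 groups did not overlap, and their order was BSA, Rspo2, Wnt3a and then the combination.

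Scaled to the 75th percentile, the log2 level of probe 1 was -3.33 ± 0.14 with BSA, -2.60 ± 0.17 with Rspo2, -1.14 ± 0.24 with Wnt3a and 0.62 ± 0.16 with both (SD, n = 3 each). The log2 difference from BSA was 0.73 with Rspo2, 2.19 with Wnt3a and 3.95 with both (SE 0.14 each), or 1.66-fold, 4.58-fold and 15.4-fold. Adding Rspo2 to Wnt3a went with a further log2 difference of 1.75 (SE 0.14), 3.37-fold. The interaction, which is the log2 difference with both less the differences with Rspo2 and with Wnt3a, was 1.02 (SE 0.20). On the linear scale of intensity over the 75th percentile, the level above BSA was 0.0664 with Rspo2, 0.359 with Wnt3a and 1.44 with both, so the combination stood 3.39 times as far above BSA as the sum of the single treatments. Whole monolayers were measured, so more cells with the mRNA and more mRNA per cell cannot be told apart.

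Probe 2 of *Ppfibp2* (A_52_P622641) starts 179 bases upstream of probe 1 in the array design. It read 70.5, 54.6 and 53.7 units with BSA, 105, 65.8 and 64.7 with Rspo2, 245, 206 and 160 with Wnt3a, and 842, 859 and 1066 with both. After scaling, its groups also kept the order BSA, Rspo2, Wnt3a and combination without overlap, but the lowest Rspo2 array (log2 level -3.74) and the highest BSA array (-3.75) nearly met. Its log2 differences from BSA were 0.61 with Rspo2, 2.12 with Wnt3a and 4.06 with both (SE 0.19 each). The interaction was 1.32 (SE 0.26). Over the 12 arrays the log2 levels of the 2 probes had a Pearson correlation of 0.993, a description of 2 probes of 1 transcript on the same arrays.

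**Figure D1:**
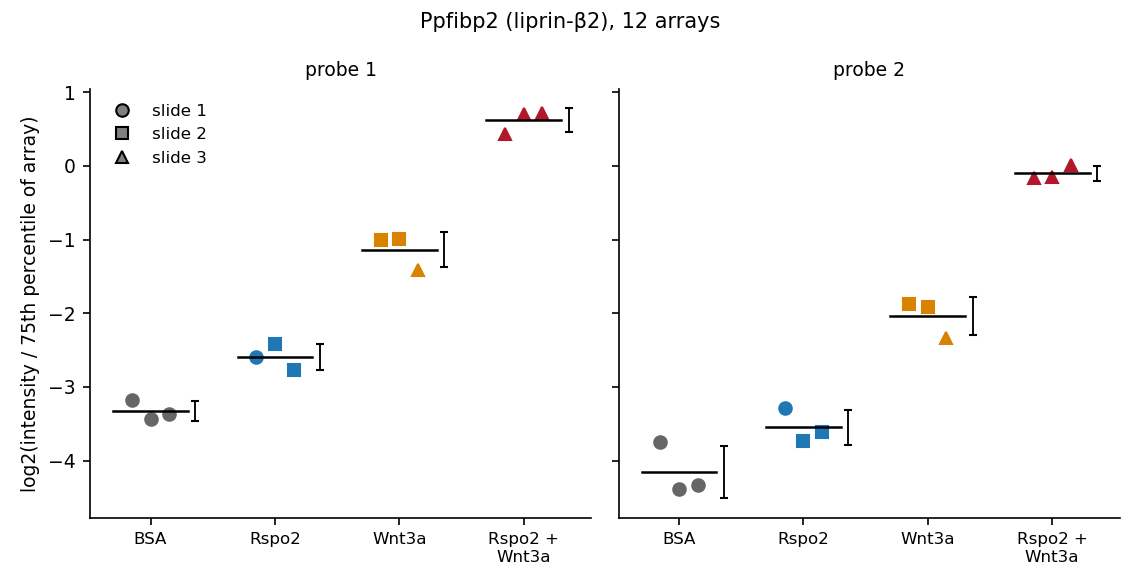
Log2 level of the 2 *Ppfibp2* probes over the 75th percentile of its array (y axis) in the 4 treatment groups (x axis). Each point is 1 array, its shape gives the slide, horizontal lines are group means and bars are the SD of 3 arrays. On both probes the groups climb in the order BSA, Rspo2, Wnt3a and combination, from -3.33 to 0.62 for probe 1.

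The same order was found within slides, where treatments can be compared on 1 piece of glass. On slide 1, the Rspo2 array was 0.73 log2 units above the mean of the 3 BSA arrays for probe 1 and 0.88 for probe 2. On slide 2, the 2 Wnt3a arrays were 1.60 and 1.78 above the 2 Rspo2 arrays. On slide 3, the 3 combination arrays were 2.03 and 2.23 above the Wnt3a array. A fit with slide as a term put the difference between the combination and BSA at 4.36 (SE 0.28) for probe 1 and 4.89 (SE 0.37) for probe 2. This fit joins the within-slide differences above through 1 Rspo2 array on slide 1 and 1 Wnt3a array on slide 3. It is therefore not a separate check. With normexp background correction, the log2 difference of probe 1 from BSA was smaller, at 1.55 with Wnt3a and 3.11 with both. That setting adds an offset of 50 units, which by itself makes log2 differences of dim probes smaller.

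Among the 22751 tested probes, the rise of probe 1 over BSA ranked 118 under Rspo2, 5 under Wnt3a and 13 under the combination. Probe 2 ranked 228, 10 and 11. The interaction ranked 734 and 401. The genes with the pattern most like probe 1 over the 12 arrays were *Msln* (mesothelin, a cell surface protein; r = 0.994), *Pla1a* (a phospholipase; r = 0.993), *Bhlhe40* (a transcriptional repressor; r = 0.992), *Trim16* (a tripartite motif protein; r = 0.991) and *Itgb4bp* (r = 0.991), among 4760 probes with a symbol and a range of at least 1 log2 unit. Their log2 differences from BSA were smaller than those of *Ppfibp2*. With both proteins they were 1.54 for *Msln*, 1.40 for *Pla1a*, 1.61 for *Bhlhe40*, 1.07 for *Trim16* and 1.25 for *Itgb4bp*, against 3.95 for *Ppfibp2*. All these values share the arrays, slides and scaling, and a correlation ignores the size of a response.

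The chromosomal neighbors of *Ppfibp2* were looked up by position in the GRCm38.p6 annotation, taking the nearest 3 protein-coding genes with a probe on each side. *Olfml1*, *Syt9* and *Rbmxl2* on one side and *Cyb5r2* and *Ovch2* on the other were above background on 0 arrays. *Olfr469*, an olfactory receptor gene of a large family of similar sequences, was above background on 9 arrays. Against BSA it changed by 0.36 on the log2 scale under Rspo2 (limma, adjusted p = 0.263), by -0.05 under Wnt3a (adjusted p = 0.882) and by 0.50 under the combination (adjusted p = 0.0910). No measured neighbor passed the test.

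*Ppfibp1*, for liprin-β1, was measured by 3 probes that were above background on every array. None moved as far as 2-fold. Probe 1 (A_51_P204860, chr6:147110044-147110103 in the array design) read 8420, 10094 and 9538 units with BSA and 7873, 7719 and 6681 with Rspo2. It read 9297, 7860 and 7536 with Wnt3a and 9744, 9415 and 12042 with both. After scaling, the BSA arrays were nearly equal, with a log2 level of 3.14 ± 0.004, all 3 Rspo2 arrays lay below them (2.95 to 3.13), and all Wnt3a (3.23 to 3.37) and combination arrays (3.30 to 3.51) lay above them. The Wnt3a and combination groups overlapped. The log2 change with both proteins was 0.25 (SE 0.08, 95% interval 0.07 to 0.43) with a limma adjusted p of 0.0322, a rise of 1.19-fold. That p passed 0.05 but not the 2-fold requirement. It was over 0.05 with slide as a term (log2 change 0.22, adjusted p = 0.597), after quantile normalization (0.03, adjusted p = 0.798) or normexp correction (0.34, adjusted p = 0.308), with no filter on dim probes (adjusted p = 0.0965), with a replicate block (adjusted p = 0.0699), with the 75th percentile taken over probes above background on all arrays (0.14, adjusted p = 0.223), and without any 1 of the BSA arrays or of combination replicates 1 and 3 (0.19 to 0.26). Without BSA replicate 1, Rspo2 replicate 3 and combination replicate 1 together, a choice made after seeing the data, it was 0.26 (adjusted p = 0.119). The methods' t-test, which is not exact for groups of this size, gave an unadjusted p of 0.0568. The log2 change was -0.09 with Rspo2 (adjusted p = 0.459) and 0.17 with Wnt3a (adjusted p = 0.134).

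Probe 2 of *Ppfibp1* (A_51_P204862) starts 128 bases downstream of probe 1. With Rspo2 all arrays (log2 level 1.93 to 2.21) lay below the BSA arrays (2.25 to 2.50), and with both proteins all arrays (2.40 to 2.63) lay above those with Wnt3a (2.28 to 2.37). The log2 change was -0.23 with Rspo2 against BSA (limma, adjusted p = 0.153) and 0.21 with both against Wnt3a (adjusted p = 0.327). Its interaction of 0.43 (SE 0.15, 95% interval 0.10 to 0.76) had an adjusted p of 0.0889 and was not called. Probe 3 (A_52_P443846) starts 33555 bases upstream of probe 1. Its log2 changes from BSA lay between -0.15 and 0.01, with adjusted p-values from 0.433 to 0.953.

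*Ppfia1*, for liprin-α1, the α protein of the cell cortex, was measured by 3 probes. Probe 1 (A_51_P440954, chr7:140902066-140902125) read 5676, 5464 and 5429 units with BSA, 3976, 4236 and 3023 with Rspo2, 4723, 3891 and 3315 with Wnt3a, and 3450, 4242 and 5201 with both. Its scaled groups overlapped, narrowly so for Rspo2 (log2 level 1.93 to 2.27) and BSA (2.25 to 2.58). The log2 change was -0.33 with Rspo2 (95% interval -0.66 to -0.01; limma, adjusted p = 0.132), -0.13 with Wnt3a (-0.45 to 0.19; adjusted p = 0.525) and -0.28 for the combination (-0.60 to 0.04; adjusted p = 0.153). Probe 2 (A_52_P449130) lay lower and more scattered, with readings between 402 and 1025 units and an SD of up to 0.41 log2 units within a group. Its change with both proteins had the other sign, 0.14 (-0.35 to 0.62; adjusted p = 0.661). Probe 3 (A_51_P424603) was above background on 0 arrays, with at most 9.66 units, so no change is given for it.

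*Ppfia3*, for liprin-α3, a protein best known from synapses, was measured by 1 dim probe (A_52_P104581, chr7:41515100-41515159). It read 84.3, 114 and 132 units with BSA, 90.3, 84.8 and 73.7 with Rspo2, 88.8, 68.1 and 60.0 with Wnt3a, and 67.6, 64.0 and 72.9 with both. After scaling, the 3 combination arrays (log2 level -3.91 to -3.80) lay below every other array, and the other groups overlapped. The log2 change with both proteins was -0.57 (SE 0.13, 95% interval -0.85 to -0.29) with a limma adjusted p of 0.00536. This was a fall of 1.48-fold, which did not meet the 2-fold requirement. On slide 3 the combination arrays were 0.11 log2 units below the Wnt3a array. With slide as a term the log2 change was -0.34 (adjusted p = 0.604), with normexp correction -0.66 (adjusted p = 0.485) and after quantile normalization -0.36 (adjusted p = 0.125). The log2 change was -0.15 with Rspo2 (adjusted p = 0.439) and -0.24 with Wnt3a (adjusted p = 0.169).

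**Figure D2:**
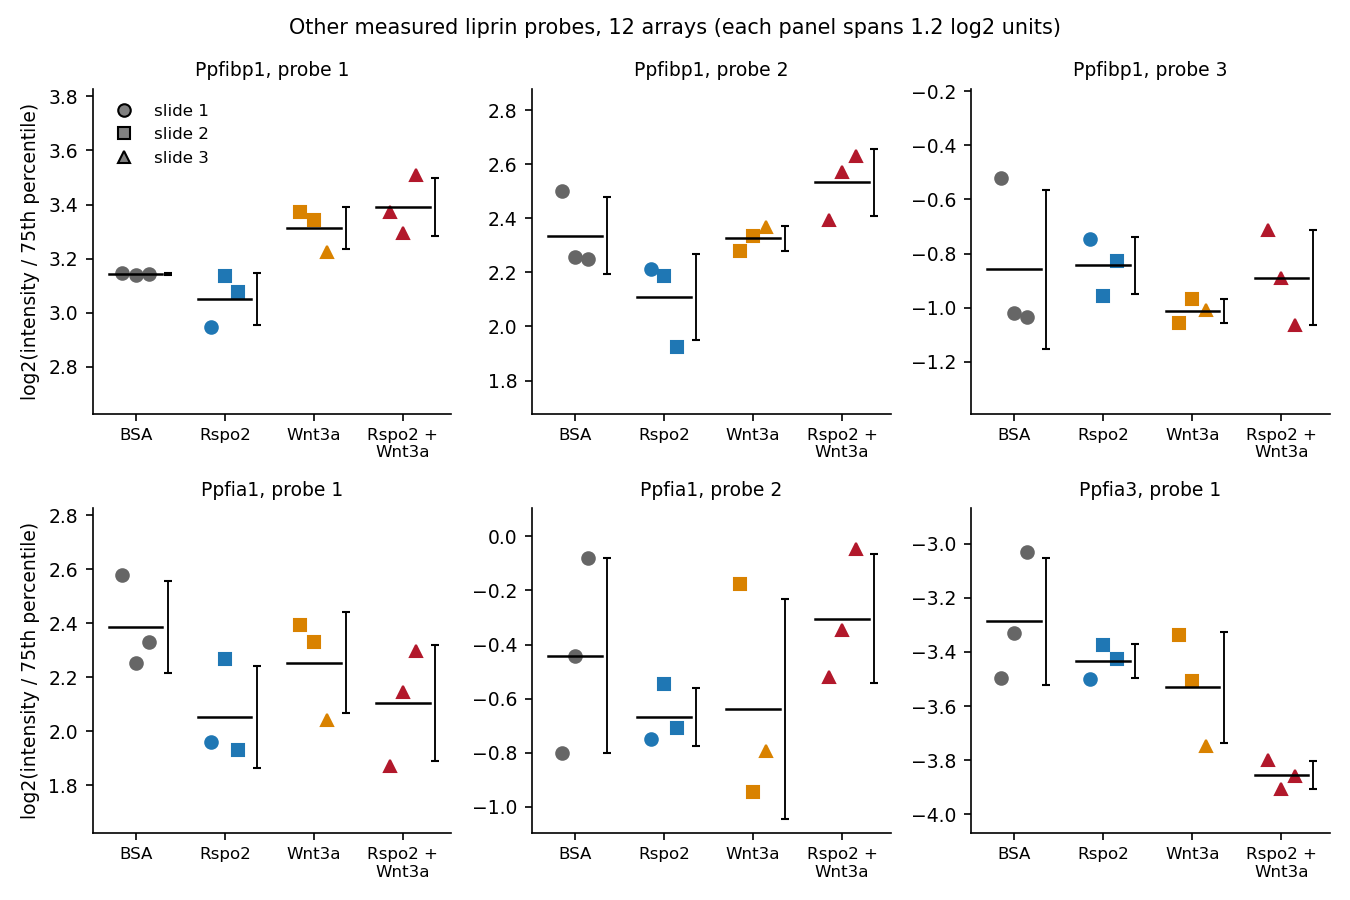
Log2 level over the 75th percentile of its array (y axis, 1.2 log2 units in each panel) of the 6 measured probes of *Ppfibp1*, *Ppfia1* and *Ppfia3* in the 4 groups (x axis). Points are arrays with shapes for slides, lines are means and bars are the SD of 3 arrays. Most groups overlap, and the combination arrays of *Ppfia3* lie below all others, at -3.91 to -3.80.

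*Ppfia2* and *Ppfia4*, for the neuronal liprins α2 and α4, were near or under background. Probe 1 of *Ppfia2* (A_51_P435447) was well above background on 3 arrays, BSA replicate 1 (76.5 units), Rspo2 replicate 3 (57.9) and combination replicate 1 (73.5). On the other 9 arrays it read between 5.95 and 35.6 units. Probe 2 (A_51_P392377) was above background on 2 arrays, Rspo2 replicate 3 and combination replicate 1, with at most 24.9 units. The probe of *Ppfia4* (A_51_P316311) was above background on BSA replicate 1 (37.0 units) and combination replicate 1 (42.7), and read between 7.11 and 27.3 units elsewhere. Those arrays are the 3 with the most probes well above background, and the part of this in the readings was not tested. No group had such signal on all its arrays, so no change is given for these genes.

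Beside *Ppfibp2*, which was not tested, the measured liprin probes changed by less than 2-fold. *Ppfia2* and *Ppfia4* could not be judged. Of the 6 tested probes of *Ppfibp1*, *Ppfia1* and *Ppfia3*, 0 were called by limma, at an adjusted p under 0.05 and at least 2-fold, in any of the 5 comparisons. The share called among all 22751 tested probes was 0.721% with Rspo2, 2.52% with Wnt3a, 5.08% with both, 0.747% with both against Wnt3a and 1.93% for the interaction. At an unadjusted p under 0.05 and any size, 1, 0, 2, 1 and 1 of the 6 probes passed in these comparisons, against 35%, 43%, 47.9%, 18.4% and 29.3% of all tested probes, and the methods' t-test with the 2-fold requirement called 0. At an adjusted p under 0.05 and any size, 2 of the 6 passed with both proteins, 1 higher and 1 lower, and 0 in the other comparisons. Over all tested probes that share was 16.8% with Rspo2, 31.5% with Wnt3a, 39.2% with both, 4.27% with both against Wnt3a and 8.9% for the interaction. The median log2 change of the 6 probes was -0.19 with Rspo2, -0.14 with Wnt3a and 0.05 with both, against 0.01, 0.00 and 0.04 over all tested probes. The intervals of these probes for the 3 treatments lay within -0.85 and 0.62 log2 units. For the interaction, the interval of *Ppfia1* probe 2 was wider and reached 1.25, past 2-fold. The 3 treatments share the BSA arrays.

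**Figure D3:**
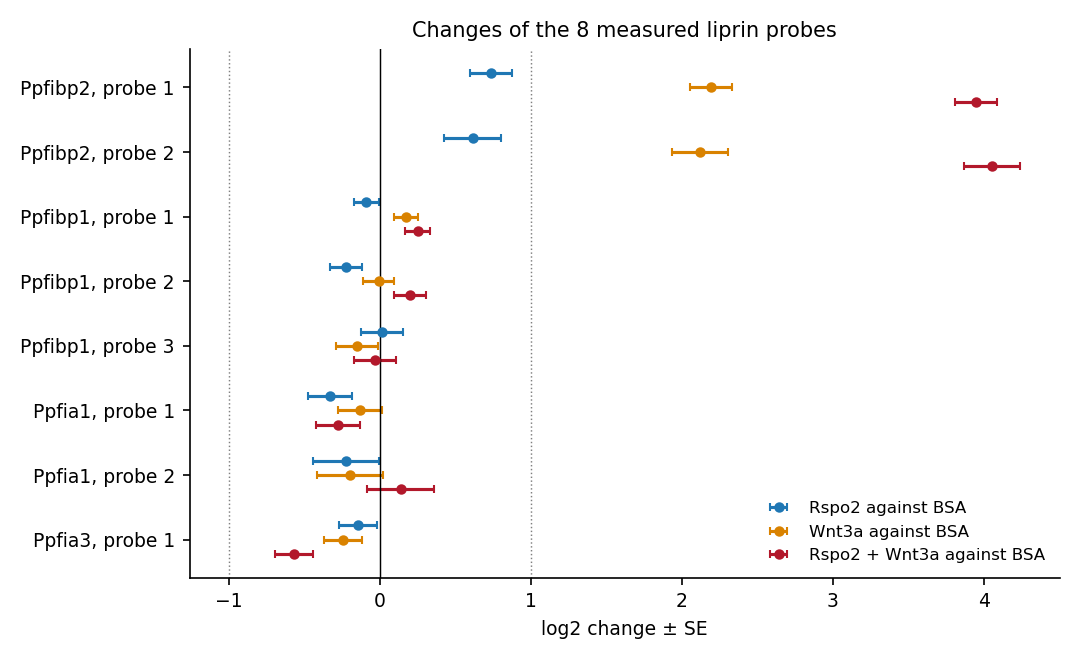
Log2 change against BSA (x axis, dotted lines at 2-fold) of the 8 measured liprin probes (y axis), with its SE from the limma fit. Both *Ppfibp2* probes reach about 4 log2 units with the combination (3.95 and 4.06), and the other 6 probes stay between -0.57 and 0.25.

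A list of 33 genes whose products bind liprins or work beside them was followed, each gene by its brightest tested probe. Of these, 21 were tested, and 12 were not, among them *Ptprd*, *Erc2*, *Kank3*, *Kank4* and *Kif1a*. Under the call rule 0 of 21 were called with Rspo2 and 0 with Wnt3a, and 1 was called higher in each of the other 3 comparisons, in each case *Kank1*. The share called among all tested probes was 0.721% with Rspo2, 2.52% with Wnt3a and 5.08% with both. It was 0.747% for both against Wnt3a and 1.93% for the interaction. At an unadjusted p under 0.05 and any size, 5 of 21 passed with Rspo2, 7 with Wnt3a, 6 with both, 2 for both against Wnt3a and 7 for the interaction, beside the 35%, 43%, 47.9%, 18.4% and 29.3% of all tested probes given above. The median log2 change of the 21 genes was -0.11 with Rspo2, -0.08 with Wnt3a and -0.04 with both, against 0.01, 0.00 and 0.04 over all tested probes.

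*Kank1* encodes a scaffold of the cortical complex in which liprin-β1 sits. Of its 3 probes on the array, only 1 passed the filter and was tested. This probe was dim and above background on 10 of 12 arrays. It read 74.4, 54.8 and 51.8 units with BSA, 31.2, 73.4 and 26.8 with Rspo2, and 46.6, 34.9 and 24.7 with Wnt3a. With both proteins it read 108, 116 and 129 units, above every other array. The log2 change was 1.08 with both against BSA (SE 0.35; limma, adjusted p = 0.0316) and 1.52 against Wnt3a (SE 0.35; adjusted p = 0.0350), and the interaction was 1.87 (SE 0.50; adjusted p = 0.0436). The call against BSA was lost without BSA replicate 2 or 3 or any 1 of the combination arrays (adjusted p from 0.0679 to 0.0976), with slide as a term (0.94, adjusted p = 0.593) and with normexp correction (0.17, adjusted p = 0.889). The normexp offset of 50 units exceeds some readings of this probe, so that setting shrinks its log2 differences by construction. The call against Wnt3a held without BSA replicate 1 or any 1 Rspo2 array and was lost without any 1 of the other arrays (1.30 to 1.68). It was also lost with normexp correction (0.44, adjusted p = 1.00), with slide as a term (1.96, adjusted p = 0.0825) and with a replicate block (adjusted p = 0.0545). On slide 3 alone the combination arrays were 1.96 log2 units above the Wnt3a array.

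*Ptprf* and *Ptprs* encode LAR-type receptor phosphatases, whose intracellular part the α proteins bind. The brightest *Ptprf* probe changed by 0.19, 0.12 and 0.30 on the log2 scale with Rspo2, Wnt3a and both, with limma adjusted p-values of 0.440, 0.594 and 0.165. A dimmer *Ptprf* probe (A_52_P148883) was higher by 0.50, 0.65 and 0.83, with adjusted p-values of 0.0252, 0.00334 and 0.000501, under 2-fold each time. The third (A_51_P466478) changed by -0.03, -0.56 and -0.21, with adjusted p-values of 0.956, 0.235 and 0.664. *Ptprs* was among the 3 brightest partner genes. It read 19357, 24624 and 23161 units with BSA and between 9465 and 15026 on all treated arrays, so BSA overlapped with no treatment. Its log2 change was -0.56 with Rspo2 (limma, adjusted p = 0.0311), -0.59 after Wnt3a (adjusted p = 0.0113) and -0.79 for the combination (adjusted p = 0.00188), under 2-fold each time, and -1.05 for the combination after quantile normalization. On slide 1 the Rspo2 array was 0.58 log2 units below the BSA arrays. With slide as a term the 3 changes were -0.58, -0.53 and -0.54, with adjusted p-values of 0.252 to 0.505. A second, dimmer *Ptprs* probe changed by -0.40, -0.74 and -0.46, and passed 0.05 with Wnt3a (adjusted p = 0.0283).

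*S100a4*, whose product binds liprin-β1, was the brightest partner gene, with log2 levels of 8.15 ± 0.03 with BSA, 8.42 ± 0.20 with Rspo2, 8.51 ± 0.13 with Wnt3a and 8.35 ± 0.08 with both (SD, n = 3 each). Before scaling it read 274880, 319640 and 310200 units with BSA and 295000, 291930 and 315490 with Wnt3a, so these groups overlapped. Whether so bright a probe was saturated was not tested. After scaling, the log2 change of *S100a4* was 0.36 with Wnt3a (limma, adjusted p = 0.0286), 0.27 with Rspo2 (adjusted p = 0.103) and 0.19 for the combination (adjusted p = 0.182). Each change turned slightly negative after quantile normalization (-0.02, -0.02 and -0.03). *Trio*, for a guanine nucleotide exchange factor that binds LAR, had log2 changes of -0.17, -0.15 and 0.09 with Rspo2, Wnt3a and both, with adjusted p-values from 0.350 to 0.592. At an adjusted p under 0.05 and any size, 2 of 21 genes were lower and 0 higher with Rspo2, 3 lower and 2 higher with Wnt3a, and 4 lower and 2 higher with both, against 16.8%, 31.5% and 39.2% of all tested probes in either direction. With both proteins the lower genes were *Ptprs*, *Erc1* (-0.77), *Caskin2* (-0.54) and *Kif21a* (-0.44), and the higher ones *Kank1* and *Lin7c* (0.36). *Erc1*, *Kif21a* and *Kank1* belong to the cortical complex, and the products of *Caskin2* and *Lin7c* are adaptors of scaffold complexes. With slide as a term the changes were -0.54 for *Ptprs*, -0.19 for *Erc1*, -0.23 for *Caskin2*, -0.41 for *Kif21a*, 0.94 for *Kank1* and 0.41 for *Lin7c*, and each adjusted p was over 0.05, from 0.310 to 0.829. Other probes of some genes differed. The other *Lin7c* probes rose further with both proteins, by 0.74 each (limma, adjusted p = 0.000101 and 0.000120). Dimmer *Cask* probes changed by -0.43 and -0.63 with Wnt3a (adjusted p = 0.0388 and 0.0199), and the brightest by 0.10 (adjusted p = 0.482). A dim *Clasp1* probe, like *Cask* named after its values were seen, fell with Wnt3a by 1.12 on the log2 scale (limma, adjusted p = 0.00408). This dim probe met the call rule, but the counts of genes use the brightest probe. The brightest *Clasp1* probe changed by -0.24 with Wnt3a (limma, adjusted p = 0.137) and was not called. The remaining *Clasp1* probes changed by -0.17, -0.18, -0.84 and -0.42 with Wnt3a (limma, adjusted p from 0.0646 to 0.552).

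**Figure D4:**
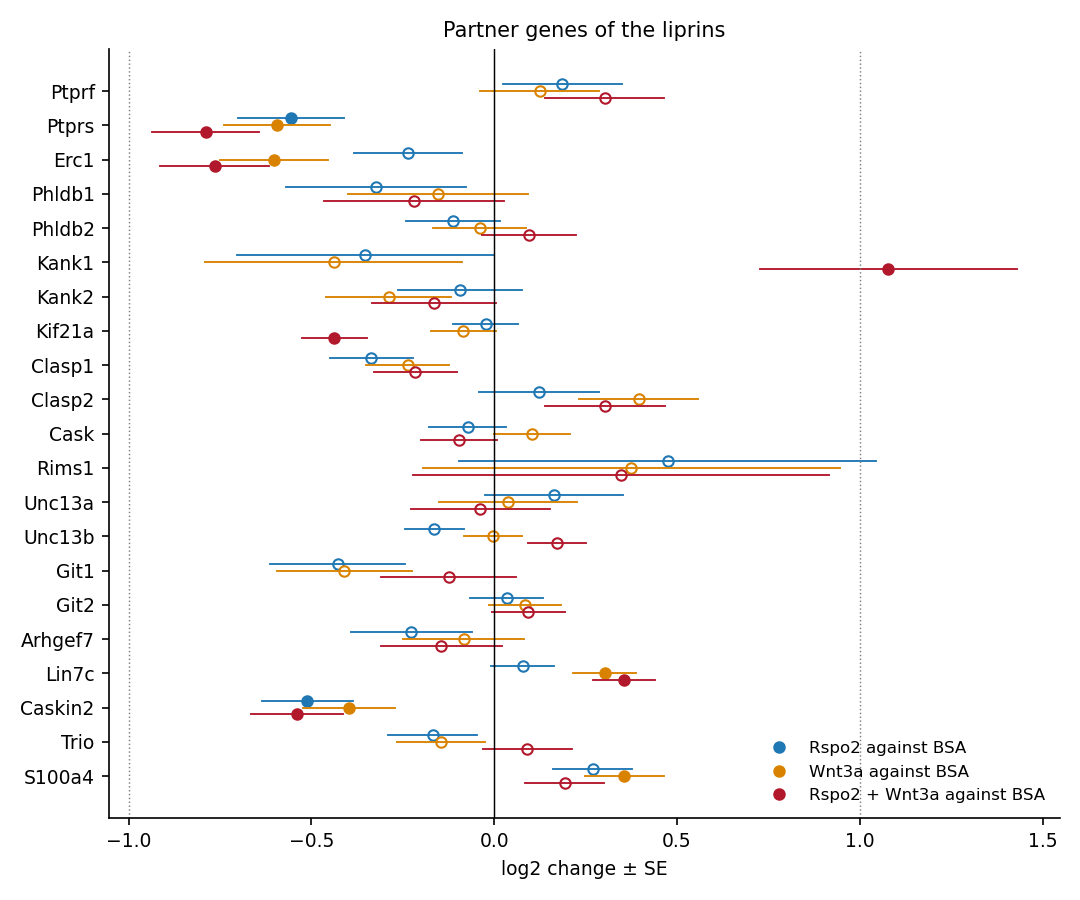
Log2 change from BSA with its SE (x axis, dotted lines at 2-fold) of the 21 tested partner genes (y axis) for the 3 treatments. Filled points have an adjusted p under 0.05. Only *Kank1* with both proteins passes 2-fold (1.08), and *Ptprs* is lower in all 3 treatments (-0.56 to -0.79).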

How the data were processed

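Intensity values of 12 single-color arrays (3 per group) were made by the authors with Agilent Feature Extraction 9.5.3.1, which subtracted background, and were deposited unscaled between arrays. Deposited ratio values, each signal divided by the 75th percentile of its array, served as an alternative; their medians per array were 0.05 to 0.08. Of 520548 spot values, 1327 marked uneven or outlying were left out. Spots of a probe were averaged, put on the log2 scale, and the 75th percentile was subtracted per array. Testing required a probe to be well above background on every array of some group (22751 probes). Groups were compared in 1 limma 3.58.1 fit (R 4.3.3, with version 1.17.8 of the data.table package) over all arrays, with p-values adjusted by the Benjamini-Hochberg method over all tested probes. A call needed an adjusted p under 0.05 and at least 2-fold. The number of arrays limits the precision.

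The liprin genes and the partner and marker lists were chosen with earlier results of these data known. Named genes were every liprin probe, partner genes called in any comparison and the 3 brightest, the 5 genes most correlated with *Ppfibp2*, and *Axin2* and *Nkd1*. Outside this rule, the partner genes past an adjusted p of 0.05 with both proteins (*Erc1*, *Caskin2*, *Kif21a*, *Lin7c*) and *Ptprf*, *Cask* and *Clasp1* were named after their values were seen, the chromosomal neighbors by position, and markers as checks of the label. Probes were named by RefSeq accession through GRCm38.p6 (22951 probes) or by the files (11758). Alternatives covered background correction, scaling, filters, slide, replicate block, the methods' t-test, the value table and the leaving out of arrays; leaving out together the 3 arrays with most probes above background was chosen after seeing the data. The fit was also run on simulated data with independent normal noise and no slide effect. That run cannot judge calls that depend on slide. Tables and figures were made with python 3.11.15, numpy 2.4.6, pandas 2.3.3, scipy 1.17.1 and matplotlib 3.10.9.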

Additional observations from a re-analysis of the deposited data

Results flagged for a closer look

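The effect of Rspo2 on *Kank1* differed with and without Wnt3a by a test of the difference itself. The log2 change with Rspo2 was -0.35 against BSA and 1.52 when added to Wnt3a, an interaction of 1.87 (limma, adjusted p = 0.0436). Over the alternatives run for this value the adjusted p lay between 0.00765 (without Rspo2 replicate 2) and 0.997 (normexp background correction, log2 difference -0.01). The call held without Rspo2 replicate 2 and was lost without any 1 of the other 11 arrays.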

How the results depend on the processing

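Counts are of calls at an adjusted p under 0.05 and 2-fold, and *Ppfibp2* is left out of the liprin count. Limits: slide, signal close to background and 3 arrays per group bound every value. Normexp background correction moved the median of all tested probes by 0.14 with Rspo2, -0.10 with both and -0.16 in the interaction, and the 75th percentile over probes above background on all arrays moved it by -0.12 with Wnt3a, -0.11 with both and 0.11 in the interaction.

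Of the 6 liprin probes, 0 were called in any comparison. Without the 2-fold requirement 2 passed with both proteins, against 39.2% of all tested probes. Every other alternative, the leaving out of single arrays included, gave 0.

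The partner count was 0 with Rspo2, 0 with Wnt3a and 1 in the other 3 comparisons. Without the 2-fold requirement 2 genes of 21 passed under Rspo2, 5 under Wnt3a and 6 under the combination. The shares of all tested probes were 16.8%, 31.5% and 39.2%. With both against BSA it was 2 after quantile normalization and 0 with normexp, the other percentile, no filter, only probes above background on all arrays, slide as a term, the adjusted t-test, the value table and without the 3 arrays with most probes above background. Against Wnt3a it was 0 with normexp, no filter, only probes above background on all arrays, slide as a term, the adjusted t-test and without the 3 arrays. For the interaction it was 0 with normexp, quantile normalization, no filter, only probes above background on all arrays, slide as a term and without the 3 arrays, and with Wnt3a 1 without the 3 arrays. The *Kank1* probe was above background on 10 of 12 arrays. With only probes above background on all arrays it was left out, so its call could not be kept there. Leaving out single arrays gave 0 to 1 in all 5 comparisons. The 1 with Rspo2 and with Wnt3a came without BSA replicate 3, from *Ptprd*, which passed the filter on dim probes when that array was left out. Without that array the count was also 1 with both against BSA and in the interaction. *Kank1* was not the gene called there (limma, adjusted p = 0.0976 and 0.0733). The cause of these differences was not tested.

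Replicate numbers did not pair the arrays: same-number correlations lay between -0.41 and 0.27. With a replicate block the partner count fell to 0 against Wnt3a and for the interaction. The adjusted p of *Ppfibp1* with both rose to 0.0699, and the liprin count was 0.

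Among single genes, the *Ppfibp2* change kept its sign under all alternatives, at 3.11 to 4.36 with both. Small changes turned sign: *Ppfibp1* with Wnt3a (-0.054) and *Ppfia3* with Wnt3a (0.030) after quantile normalization, *Ppfia3* with Rspo2 under normexp (0.29), and with slide as a term *Ppfia3* in the interaction (0.10) and *Ppfia1* with both against Wnt3a (0.065; 0.093 as the mean over its probes).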
